A study of Rattus norvegicus with 12 samples.

Results

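The solute carriers form a superfamily of membrane proteins named with the symbol Slc and a family number, and the genes described here are those whose transcripts lay above a level filter in rat heart. Members were probe sets with a single gene symbol of the solute carrier form, chosen by their mean level over all 12 arrays, which had to reach the 40th percentile of the array, a log2 value of 4.01. Of 31099 probe sets on the array, 400 carried such a symbol, for 294 genes. Of these, 147 lay below the percentile and 17 were left out by name, 14 of them above it, for 10 genes (Slc8a1, Slc24a3, Slc40a1, Slc11a2, Slc25a20, Slc27a1, Slc2a1, Slc2a4, Slc16a1 and Slc16a3). This left 236 probe sets of 182 genes, and 102 of the 294 genes had neither a member nor a left-out probe set. The rule itself uses no difference between groups, but it was set with earlier results of these data known. The members' means ran from 4.02 to 13.34, with a median of 5.74. Just inside the filter lay Slc30a9 at 4.02 and Slc26a1, a probe set of Slc17a7 and Slc25a18 at 4.03 each. Just outside it lay Slc18a3 at 3.98, a probe set of Slc6a17 at 3.99, Slc39a11 at 4.001 and Slc16a7 at 4.006. The symbols of 2 members, Slc4a1ap and Slc7a6os, were made after a neighbouring or binding carrier, and their products are not themselves carriers.

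The 4 groups were left atrial appendage of shunt rats, left atrial appendage of sham rats, left ventricular free wall of shunt rats and left ventricular free wall of sham rats, with 3 arrays each. All rats were male Sprague Dawley, and tissue was taken 28 days after an aorto-caval shunt, which joins aorta and vena cava and returns extra blood to the heart, or after a sham operation. Each array held RNA of a pool of 2 tissues, so an array is not a single rat. Each value is an average over all the cell types of the tissue.

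Carriers move ions, sugars, amino acids, nucleotides, vitamins and metals across the plasma membrane and the membranes of organelles. Some work as exchangers, some couple uptake to the sodium gradient, and the large family 25 sits mainly in the inner mitochondrial membrane, where it passes metabolites between cytosol and matrix. In heart muscle, carriers supply fuels, set cell pH and chloride, take up creatine and taurine, and clear adenosine and monoamines from the space between cells.

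Values are log2 values on the deposited scale, and differences between groups are log2 differences, so 1 stands for a 2-fold difference. They compare the same probe set between groups, never the levels of different probe sets. Each difference has the standard error (SE) of a limma fit over all 18625 probe sets that passed the filter, and "called" means a Benjamini-Hochberg adjusted p under 0.05 over all of them. Precision is limited by the small number of arrays, 3 in each group. Arrays of the same group correlated at 0.983 to 0.996 across probe sets, and atrial with ventricular arrays at 0.935 to 0.950. Markers fitted the labelled chambers: all 5 tested atrial myocyte genes were higher in left atrium of sham rats (Myl7 averaged 13.80 there and 7.08 in left ventricle), and all 5 ventricular ones lower. Atrial shunt array 3 had the highest difference between the 3′ and 5′ hexokinase control probe sets, a sign of RNA integrity, at 1.44, against 0.80 and 0.94 on the other atrial shunt arrays and 1.01 to 1.10 on atrial sham arrays. Ventricular shunt arrays stood at 1.23, 0.82 and 1.18, and ventricular sham arrays at 0.84, 1.02 and 0.90. Ventricular shunt arrays 1 and 3 thus lay above every sham array.

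The first comparison set shunt against sham within left atrium. A few carriers changed. The creatine carrier Slc16a12 rose 2.41-fold and 2.30-fold on its 2 probe sets, the taurine carrier Slc6a6 rose 1.63-fold and the adenosine carrier Slc29a1 rose 1.21-fold. The vesicular glutamate carrier Slc17a7 fell 1.91-fold, the monoamine and organic cation carrier Slc22a3 1.67-fold, the glutamine carrier Slc38a3 1.49-fold and the mitochondrial carrier Slc25a34 1.33-fold. In all, 8 of 236 member probe sets were called (3.39%), 4 higher and 4 lower, for 7 genes, beside 1.30% of all probe sets tested. By direction, 0.478% of all probe sets tested were called higher and 0.827% lower. The shunt and sham arrays did not overlap for 60 members (25.4%), beside 20.7% of all probe sets. An unadjusted p under 0.05 was reached by 41 members (17.4%), beside 15.2%. The median difference was -0.02 over members and -0.01 over all probe sets tested. With only the atrial arrays in the fit, 2 of the 8 calls were left, the dimmer probe set of Slc16a12 and the brighter one of Slc17a7. In whole tissue, fewer cells of a type and less RNA per cell cannot be told apart.

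The upstream sequences of the 3 called genes of smallest p that have an entry in the RefSeq promoter table (build GRCr8) are shown because these genes carry the atrial shunt result. Each run is the 250 bases before the annotated start, 5′ to 3′ on the gene's strand. Capitals mark the TATA box letters TATAAA and the GC box letters GGGCGG, searched on both strands, so a GC box can read CCGCCC. Slc16a12 lies at chr1:241621717-241621966 (minus strand), Slc6a6 at chr4:125752252-125752501 (plus strand) and Slc17a7 at chr1:104785955-104786204 (plus strand).
Slc16a12: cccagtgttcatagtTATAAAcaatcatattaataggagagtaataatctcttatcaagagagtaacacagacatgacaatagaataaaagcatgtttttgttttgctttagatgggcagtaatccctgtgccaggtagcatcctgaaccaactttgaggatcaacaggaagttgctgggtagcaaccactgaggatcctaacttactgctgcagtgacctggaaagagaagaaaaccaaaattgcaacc
Slc6a6: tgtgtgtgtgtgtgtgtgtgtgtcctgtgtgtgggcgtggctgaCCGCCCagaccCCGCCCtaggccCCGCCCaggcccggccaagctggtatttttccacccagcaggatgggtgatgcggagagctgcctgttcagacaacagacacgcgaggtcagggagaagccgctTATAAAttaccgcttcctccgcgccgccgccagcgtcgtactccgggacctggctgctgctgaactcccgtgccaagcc
Slc17a7: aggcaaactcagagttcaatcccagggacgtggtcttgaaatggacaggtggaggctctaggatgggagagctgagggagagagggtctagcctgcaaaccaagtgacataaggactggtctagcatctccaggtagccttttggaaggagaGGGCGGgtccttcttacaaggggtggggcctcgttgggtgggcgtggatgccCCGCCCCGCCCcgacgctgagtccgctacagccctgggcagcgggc

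Slc16a12 had no GC box, 39.6% G and C, and a single TATAAA that began 235 bases before the start. Slc6a6 had 3 GC boxes and TATAAA 79 bases before the start, with 64.0% G and C. Slc17a7 had 3 GC boxes, 2 of them overlapping within CCGCCCCGCCC, and no TATAAA, with 61.2% G and C. The letters of a CCAAT box (CCAAT), an E-box (CACGTG) or an AP-1 site (TGANTCA) were in none of the 3 windows on either strand. Promoters were found for 149 of the 182 member genes. A GC box was in 92 of them (61.7%), beside 30.5% of all 33469 promoters in the table, which hold a median of 51.2% G and C. TATAAA was in 11 (7.38%) beside 12.9%, CCAAT in 58 (38.9%) beside 34.0%, CACGTG in 22 (14.8%) beside 5.59% and TGANTCA in 12 (8.05%) beside 6.34%. The member shares count genes above the level filter, while the shares beside them count every promoter in the table, with no such filter. The sets are thus unlike, and a difference between these shares is not shown to belong to solute carriers. A match gives the presence of these letters only.

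Among sugar and monocarboxylate carriers, Slc16a12, a member of the monocarboxylate transporter family that carries creatine, had the largest atrial rise. Its dimmer probe set read 6.38, 6.06 and 5.98 in atrial shunt arrays and 4.53, 5.03 and 5.04 in atrial sham arrays. Every shunt array lay above every sham array, and the difference was 1.27 ± 0.16 (SE, adjusted p 0.00439). The brighter probe set read 7.66, 7.55 and 7.60 in atrial shunt arrays and 5.98, 6.71 and 6.53 in atrial sham arrays, a difference of 1.20 ± 0.19 (adjusted p 0.0140). In left ventricle the brighter probe set read 4.11, 3.94 and 4.16 after the shunt and 3.35, 3.92 and 3.19 after sham, without overlap but not called (0.58 ± 0.19, adjusted p 0.212). The dimmer one differed by 0.29 there (adjusted p 0.427). The call of the brighter probe set was lost without atrial shunt array 1. Of the remaining 17 probe sets of this role group none was called in left atrium.

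The carriers of neurotransmitters, creatine and taurine of family 6 take up their substrates with sodium and chloride. Slc6a6, the taurine transporter, read 8.81, 8.78 and 8.53 in atrial shunt arrays and 8.07, 8.11 and 7.83 in atrial sham arrays. All shunt arrays lay above all sham arrays, and the difference was 0.70 ± 0.09 (adjusted p 0.00514). In left ventricle it read 8.26, 8.22 and 8.10 after the shunt and 7.87, 7.86 and 7.83 after sham, again without overlap, and was not called there (0.34 ± 0.09, adjusted p 0.144). Its other probe set scattered widely, with 6.88, 6.39 and 5.51 in atrial shunt arrays and 5.82, 6.18 and 5.75 in atrial sham arrays, and was not called (0.34 ± 0.33). The creatine transporter Slc6a8 read 8.97, 8.98 and 8.90 in atrial shunt arrays and 9.04, 8.92 and 8.91 in atrial sham arrays on its brighter probe set, and the groups overlapped.

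Genes of creatine and taurine synthesis stood in a list of partners and regulators of carriers. Gamt, which makes the last step of creatine synthesis, averaged 6.45 in atrial shunt arrays and 7.01 in atrial sham arrays, a fall by 0.56 (adjusted p 0.0140). Gatm, the enzyme of the step before it, averaged 6.81 in atrial shunt arrays and 6.84 in atrial sham arrays and was not called. Csad and Cdo1, enzymes of taurine synthesis, had atrial differences of -0.37 and -0.28 and were not called. Of the 29 genes of that list that were tested, Gamt was the only atrial call.

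Slc29a1, the equilibrative nucleoside transporter that carries adenosine, had the smallest called difference and the tightest groups. It read 7.97, 8.05 and 8.05 in atrial shunt arrays and 7.75, 7.73 and 7.78 in atrial sham arrays, 0.27 ± 0.06 (adjusted p 0.0436). Its call was lost whichever of the 12 arrays was left out, with differences of 0.26 to 0.30.

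Slc17a7 loads glutamate into synaptic vesicles. Its brighter probe set read 4.37, 4.39 and 4.52 in atrial shunt arrays and 5.41, 5.14 and 5.53 in atrial sham arrays. The 3 shunt arrays lay near the ventricular values of 4.27, 3.94 and 4.22 after the shunt and 4.16, 4.08 and 3.71 after sham, all close to the level filter. The atrial difference was -0.93 ± 0.14 (adjusted p 0.00842), and it stayed called in all 12 fits without 1 array. The other Slc17a7 probe set differed by -0.50 ± 0.11 and narrowly missed the threshold (adjusted p 0.0601). Of 2 tested nerve and Schwann cell markers, Prph was called higher in atrial shunt arrays (means of 5.81 after the shunt and 4.92 after sham). The marker list averaged 4.32 to 4.57 in atrial shunt arrays and 4.11 to 4.26 in atrial sham arrays, and its part in the result was not tested.

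Slc38a3, which carries glutamine with sodium in exchange for protons, read 5.70, 5.60 and 5.91 in atrial shunt arrays and 6.39, 6.28 and 6.27 in atrial sham arrays. The difference was -0.57 ± 0.08 (adjusted p 0.00858), and the call held in all 12 fits without 1 array. The 6 ventricular arrays showed no such gap, with 7.32, 7.19 and 7.34 after the shunt and 7.38, 7.41 and 7.28 after sham. Slc7a7, which exchanges cationic for neutral amino acids, read 5.12, 5.38 and 5.47 in atrial shunt arrays and 5.84, 5.65 and 6.14 in atrial sham arrays, a difference of -0.56 ± 0.12 at an adjusted p of 0.0502, just short of the threshold. Among the 29 probe sets of amino acid and peptide carriers Slc38a3 was the only atrial call.

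Slc22a3, a low-affinity uptake carrier of monoamines and other organic cations outside neurons, read 5.46, 5.38 and 5.98 in atrial shunt arrays and 6.31, 6.32 and 6.40 in atrial sham arrays. All shunt arrays lay below all sham arrays, with shunt array 3 nearest to them. The difference was -0.74 ± 0.13 (adjusted p 0.0196). The call was lost without atrial shunt array 1 or 2 or without any of the 3 atrial sham arrays, over differences of -0.93 to -0.63. Slc25a34, a mitochondrial family member whose substrate is not established, read 7.30, 7.10 and 7.32 in atrial shunt arrays and 7.77, 7.65 and 7.53 in atrial sham arrays, a difference of -0.41 ± 0.08 (adjusted p 0.0312). Its call was lost without atrial shunt array 1 or 2, atrial sham array 1 or 2 or ventricular sham array 1 or 3, with differences of -0.47 to -0.34. It was the only atrial call among 47 probe sets of mitochondrial carriers.

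The role groups with no atrial call were the 32 probe sets of ion and acid-base exchangers, the 31 of metal ion carriers, the 5 of families 49 and 66, the 2 fatty acid transport proteins and the 2 that are named after a carrier without being one. Of the ion exchangers, Slc4a3, the chloride and bicarbonate exchanger of heart muscle, came nearest to the threshold. It read 7.36, 7.47 and 7.89 in atrial shunt arrays and 8.01, 8.09 and 8.06 in atrial sham arrays, -0.48 ± 0.11 (adjusted p 0.0601). Shunt array 3 again stood nearest to the sham arrays. Without that array the difference was -0.64 and passed the threshold (adjusted p 0.00096).

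**Figure D1:**
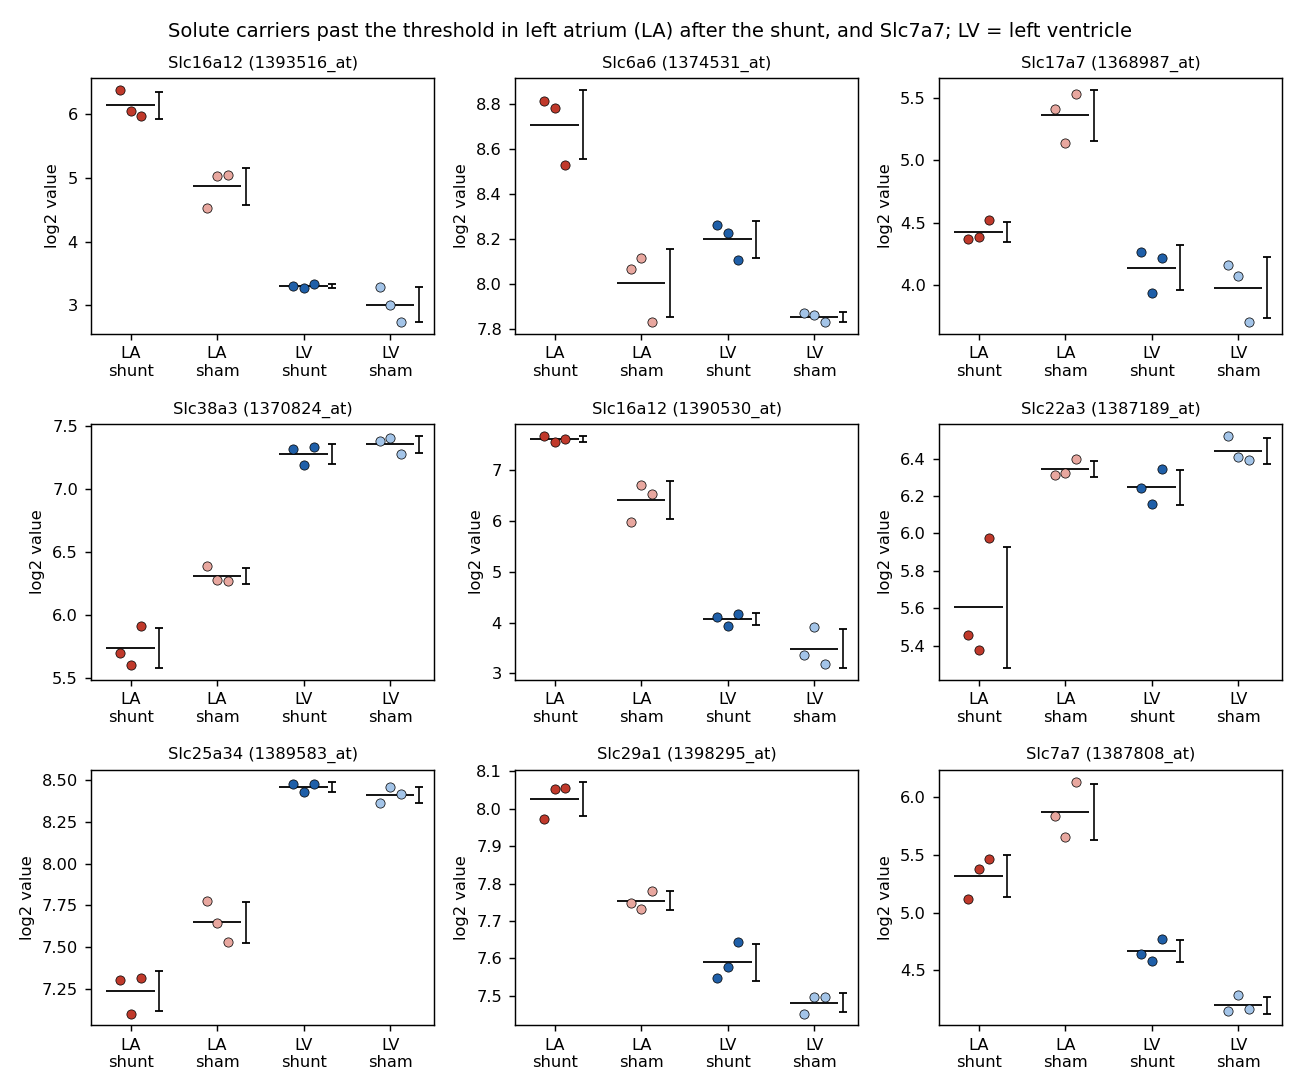
Log2 values of the 8 member probe sets called for shunt against sham in left atrium, and of Slc7a7, in 12 arrays (points), with the group mean (line) and SD of 3 arrays (bar beside it). Atrial shunt and sham arrays do not overlap in any panel, and ventricular shunt and sham arrays overlap for Slc17a7, Slc38a3, Slc25a34 and the Slc16a12 probe set with the larger atrial difference.

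Cell type markers moved with this comparison only in part. Of 5 ventricular myocyte markers 2 were called higher in atrial shunt arrays, and the list averaged 5.86 to 6.29 there and 5.10 to 5.61 in atrial sham arrays. Krt19 of the mesothelial list was called lower, and that list averaged 6.28 to 6.91 in shunt and 6.71 to 6.97 in sham atria. No fibroblast marker was called (9.99 to 10.39 in shunt and 10.19 to 10.23 in sham atria), no macrophage marker (5.87 to 6.49 in shunt and 6.10 to 6.25 in sham atria) and none of 5 pan-myocyte markers. Myh1, the only tested marker of the skeletal muscle list, was called higher. The rest of that list (Myh2, Myh4, Actn3 and Tnnt3) lay below the level filter. The list averaged 4.65 to 4.75 in shunt and 4.57 to 4.63 in sham atria. The part of these shifts in the carrier results was not tested.

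In left ventricle no carrier passed the threshold. With limma, 0 of 236 member probe sets were called, beside 0.107% of all probe sets tested, and 43 members (18.2%) had an unadjusted p under 0.05, beside 14.7%. The shunt and sham arrays did not overlap for 51 members (21.6%), beside 20.8% of all. The members' median difference was -0.02, and their differences ran from -0.45 to 0.58. The 5 members of smallest p had adjusted p-values of 0.0672 to 0.125. Other fits called between 0 and 4 members here.

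Of these 5, 3 belong to the mitochondrial carriers. Slc25a22, a carrier of glutamate into mitochondria, read 7.79, 7.63 and 7.72 in ventricular shunt arrays and 8.05, 8.03 and 8.05 in ventricular sham arrays, -0.33 ± 0.06 (adjusted p 0.0672). Slc25a16, a carrier linked to coenzyme A, read 5.68, 5.66 and 5.52 after the shunt and 5.21, 5.32 and 5.29 after sham, 0.35 ± 0.08 (adjusted p 0.0855). The dicarboxylate carrier Slc25a10 differed by 0.30 ± 0.08 (adjusted p 0.125). The remaining 2 were Slc1a5, the neutral amino acid exchanger that carries glutamine, and Slc39a14, an importer of zinc and iron. Slc1a5 read 5.69, 5.77 and 5.78 in ventricular shunt arrays and 5.42, 5.50 and 5.34 in ventricular sham arrays, 0.32 ± 0.06 (adjusted p 0.0703). Slc39a14 read 5.66, 5.85 and 5.65 after the shunt and 6.13, 6.11 and 6.28 after sham, -0.45 ± 0.09 (adjusted p 0.0795), and its other probe set differed by -0.23. In all 5 the shunt arrays lay on 1 side of the sham arrays.

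Averaging the shunt effect over both chambers uses all 12 arrays, and here 20 of 236 member probe sets (8.47%) were called, beside 4.80% of all probe sets tested. These were 9 higher and 11 lower, for 19 genes, beside 1.97% higher and 2.83% lower of all probe sets. The average shares its arrays with both single-chamber comparisons, and 7 of its 20 calls were among the 8 atrial ones. Of the 20, 19 had the same sign in both chambers, the exception being Slc17a7 (-0.93 in left atrium and 0.16 in left ventricle). The median over members was -0.02, beside -0.01 over all probe sets.

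The higher calls were Slc6a6, both probe sets of Slc16a12, Slc1a5, Slc25a16, Slc29a1, Slc16a6, Slc6a9 and Slc30a3. Slc6a6 averaged 0.52 ± 0.07 (adjusted p 0.00232) and Slc16a12 0.89 ± 0.14 and 0.78 ± 0.11 (adjusted p 0.00737 and 0.00576). Slc1a5 read 5.50, 5.44 and 5.50 in atrial shunt arrays and 5.29, 5.32 and 5.26 in atrial sham arrays, so that it was higher in shunt arrays of both chambers, with an average of 0.25 ± 0.04 (adjusted p 0.0112). Slc25a16 averaged 0.27 and Slc29a1 0.19. Slc16a6, a monocarboxylate transporter family member, averaged 0.22 ± 0.05 (adjusted p 0.0248), and its other probe set 0.23 (adjusted p 0.104). The glycine transporter Slc6a9 averaged 0.22, and Slc30a3, which loads zinc into vesicles, 0.31 ± 0.08 (adjusted p 0.0470). Slc30a3 read 6.87, 7.02 and 7.20 in atrial shunt arrays and 6.53, 6.69 and 6.55 in atrial sham arrays, while its ventricular groups overlapped.

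The smallest p among the lower calls was that of Slc49a4, a lysosomal membrane carrier. It read 8.22, 8.26 and 8.10 in atrial shunt arrays and 8.48, 8.48 and 8.50 in atrial sham arrays. In left ventricle it read 8.28, 8.11 and 8.27 after the shunt and 8.43, 8.45 and 8.53 after sham, so that shunt arrays were lower in both chambers (-0.29 in left atrium and -0.25 in left ventricle). The average was -0.27 ± 0.05 (adjusted p 0.0145). Slc25a25, which exchanges ATP-magnesium for phosphate across the inner mitochondrial membrane, differed by -0.35 in each chamber and averaged -0.35 ± 0.08 (adjusted p 0.0268). It read 5.33, 5.27 and 5.11 in atrial shunt arrays and 5.66, 5.68 and 5.41 in atrial sham arrays. Slc38a3 averaged -0.32, Slc22a3 -0.47, Slc25a22 -0.21, Slc4a3 -0.32 and Slc17a7 -0.39. The glucose 6-phosphate exchanger Slc37a1 averaged -0.26 (adjusted p 0.0326). The copper importer Slc31a1 averaged -0.23 (adjusted p 0.0400) on 1 of its 4 member probe sets, and -0.14, -0.13 and -0.03 on the others, which were not called. Slc25a46, a protein of the outer mitochondrial membrane, averaged -0.27 (adjusted p 0.0448) on 1 of its 2 probe sets and -0.09 on the other.

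Slc6a17, a transporter of neutral amino acids known from synaptic vesicles of neurons, averaged -0.41 ± 0.09 (adjusted p 0.0268) on its brightest probe set. That probe set read 8.15, 7.90 and 8.48 in atrial shunt arrays and 8.64, 8.82 and 8.66 in atrial sham arrays. In left ventricle it read 9.02, 9.24 and 9.22 after the shunt and 9.35, 9.51 and 9.47 after sham. Its other member probe sets averaged -0.27 (adjusted p 0.0665) and -0.02. In 12 fits that each left out 1 array, 6 of the 20 calls held every time. These were both probe sets of Slc16a12, Slc6a6, Slc1a5, Slc38a3 and Slc49a4. The number of calls among members was 7 without atrial sham array 3.

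**Figure D2:**
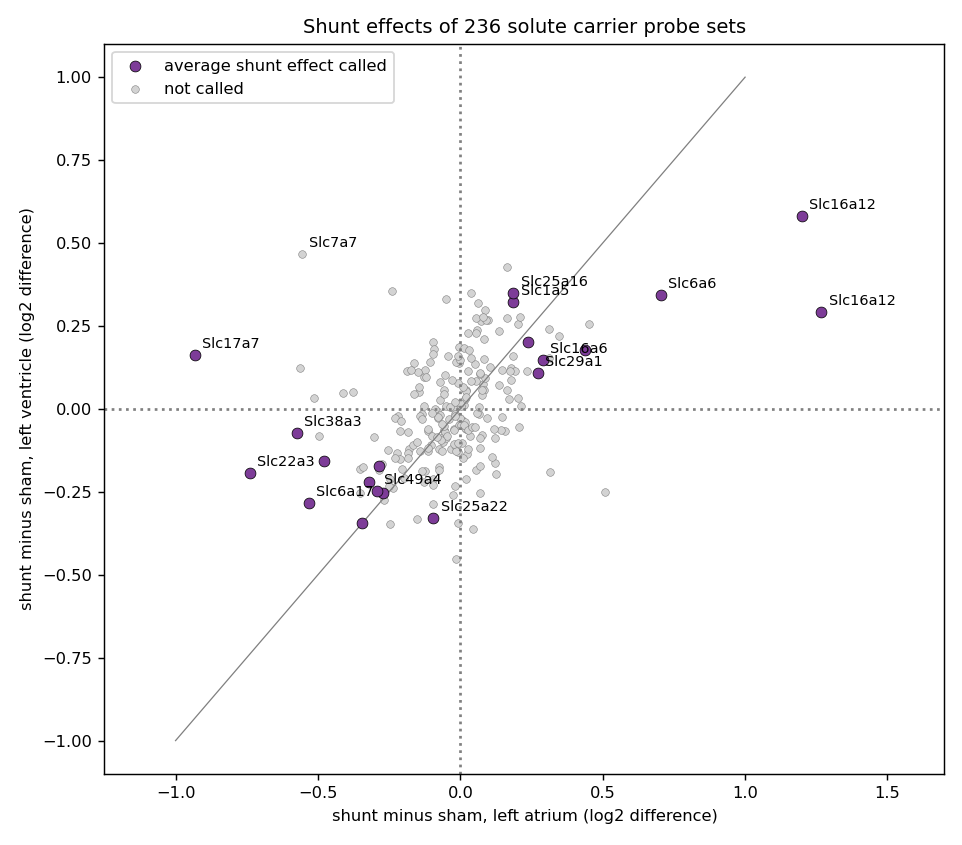
Log2 difference of shunt minus sham for the 236 member probe sets in left atrium (horizontal) and left ventricle (vertical), with the 20 called for the average in purple and the line of equal effects. Slc16a12 lies far right with 1.27 and 1.20 in left atrium, and Slc17a7 and Slc7a7 lie upper left, lower after the shunt in left atrium and with positive values in left ventricle.

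The atrial and ventricular effects share no arrays. Across the 236 members they correlated at Pearson's r = 0.406 and Spearman's rho = 0.446, and 67.4% had the same sign, beside r = 0.529, rho = 0.436 and 64.7% over the 18625 probe sets. These are descriptions across probe sets, which are not independent replicates. The difference between the shunt effects was called for 0 of 236 members, beside 0% of all probe sets tested with limma. An unadjusted p under 0.05 was reached by 20 members (8.47%), beside 6.60%, and the smallest adjusted p was 0.232. Other fits with all 12 arrays called 0 members, and leaving out atrial shunt array 3 called 1, Slc22a3. Over all 12 arrays no carrier was shown to respond differently in the chambers. Slc7a7 had the smallest p, with a difference of effects of -1.02 ± 0.17 (adjusted p 0.232). In left ventricle it read 4.65, 4.58 and 4.77 in shunt arrays and 4.14, 4.28 and 4.17 in sham arrays, with shunt arrays the higher (0.47 ± 0.12, adjusted p 0.129), opposite to left atrium. Slc17a7 had a difference of effects of -1.09 ± 0.19 (adjusted p 0.232). The next in order of p were Slc16a12 at 0.98 ± 0.23 (adjusted p 0.346), Slc38a3 at -0.50 and Slc25a34 at -0.46.

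Left atrium against left ventricle was the larger contrast. In sham rats 127 of 236 member probe sets (53.8%) were called, for 104 genes, beside 47.2% of all probe sets tested. They were 74 higher in left atrium (31.4%), beside 25.2%, and 53 lower (22.5%), beside 22.0%. Atrial and ventricular sham arrays did not overlap for 156 members (66.1%), beside 61.2%. A called difference of at least 1 was seen for 16 members (6.78%), beside 5.60%. The median over members was -0.02, beside 0.00 over all, and the median size of the difference was 0.29, beside 0.24. Fibroblast markers were higher in left atrium for 5 of 7 genes (10.19 to 10.23 in atrial and 9.50 to 9.61 in ventricular sham arrays). Mesothelial markers were higher for 3 of 4 and lower for 1 (6.71 to 6.97 in atrial and 4.004 to 4.17 in ventricular sham arrays). Smooth muscle and pericyte markers were lower for 3 of 5 tested (6.91 to 7.02 in atrial and 7.19 to 7.31 in ventricular sham arrays). Endothelial markers were higher for 1 and lower for 2 of 5 (8.54 to 8.58 in atrial and 8.52 to 8.55 in ventricular sham arrays), and macrophage markers higher for 1 and lower for 1 of 5 (6.10 to 6.25 in atrial and 6.11 to 6.18 in ventricular sham arrays). A single one of 5 pan-myocyte markers was higher and no erythroid marker was called. Of the shorter lists, 1 of 2 nerve and Schwann cell markers was higher (4.11 to 4.26 in atrial and 3.81 to 3.95 in ventricular sham arrays). The single tested skeletal muscle marker was lower (4.57 to 4.63 in atrial and 4.76 to 4.79 in ventricular sham arrays). The single tested adipocyte marker, Fabp4, was also lower. The adipocyte list went the other way, averaging 4.92 to 5.29 in atrial and 4.79 to 4.84 in ventricular sham arrays. Their part in the carrier results was not tested.

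Mitochondrial carriers were called lower in left atrium more often than higher. Of 47 probe sets 20 were called lower (42.6%), beside 22.0% of all probe sets tested, and 7 higher (14.9%), beside 25.2%. Their median was -0.18. By gene, 16 of 36 were lower and 5 higher. Slc25a22 read 7.10, 7.04 and 7.11 in atrial sham arrays and 8.05, 8.03 and 8.05 in ventricular sham arrays, -0.96 ± 0.06 (adjusted p 1.9e-07). Slc25a13, the aspartate and glutamate carrier of the malate-aspartate shuttle, differed by -0.76 and -0.45 on its probe sets, and its partner in that shuttle, the oxoglutarate carrier Slc25a11, read 10.31, 10.23 and 10.27 in atrial and 10.81, 10.78 and 10.82 in ventricular sham arrays (-0.53 ± 0.06, adjusted p 3.17e-05). Slc25a12, the other aspartate and glutamate carrier, differed by -0.37 ± 0.08 (adjusted p 0.00172). Slc25a30, an uncoupling-protein-like carrier, differed by -0.95 and -0.63, and Slc25a34 by -0.76. Slc25a24, a further ATP-magnesium and phosphate carrier, was the member of this role furthest higher, at 0.99.

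The carriers of oxidative phosphorylation differed little. The phosphate carrier Slc25a3 differed by -0.18 ± 0.05 (adjusted p 0.0149) and the adenine nucleotide translocase Slc25a5 by -0.21 ± 0.05 (adjusted p 0.00742). The heart form of the translocase, Slc25a4, differed by -0.05 ± 0.06 and was not called (adjusted p 0.508). Carriers of mitochondria under other symbols went both ways. Lower in left atrium were Mpc1 (-0.79) and Mpc2 (-0.66), the subunits of the pyruvate carrier, the uncoupling protein Ucp3 (-1.55), Mtch2 (-0.58) and Sfxn5 (-1.29). The uncoupling protein Ucp2 (0.54) and Sfxn1 (1.02), a serine carrier, were higher. Mtch1, Sfxn3 and Sfxn4 were not called.

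The nucleoside, nucleotide-sugar and acetyl-CoA carriers leaned the other way. Of 32 probe sets 20 were called higher in left atrium (62.5%), beside 25.2% of all probe sets tested, and 3 lower (9.38%), beside 22.0%. The median was 0.34, and by gene 13 of 22 were higher and 3 lower. Most of this group is family 35, which brings nucleotide sugars into the Golgi apparatus and endoplasmic reticulum for glycosylation. Slc35b4 differed by 0.85 on each of its 2 probe sets, and read 6.32, 6.44 and 6.37 in atrial and 5.71, 5.43 and 5.44 in ventricular sham arrays on the brighter one. Slc35a1, the carrier of CMP-sialic acid, differed by 0.86, 0.63 and 0.51 on its 3 probe sets. Slc33a1, the acetyl-CoA carrier of the endoplasmic reticulum, differed by 0.39, 0.34 and 0.32. Slc29a1 differed by 0.27 ± 0.06 (adjusted p 0.00197). Against the rest stood Slc35f5, with no established substrate, which read 7.10, 7.18 and 7.15 in atrial and 8.71, 8.61 and 8.68 in ventricular sham arrays, the lowest difference among all members at -1.52 ± 0.09 (adjusted p 1.59e-07). The concentrative nucleoside carrier Slc28a2 (-0.58) and Slc35a4 (-0.24) were also lower. Slc35b4, Slc35a1, Slc33a1, Slc28a2, Slc35a4 and Slc25a24 were picked after their values were seen.

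**Figure D3:**
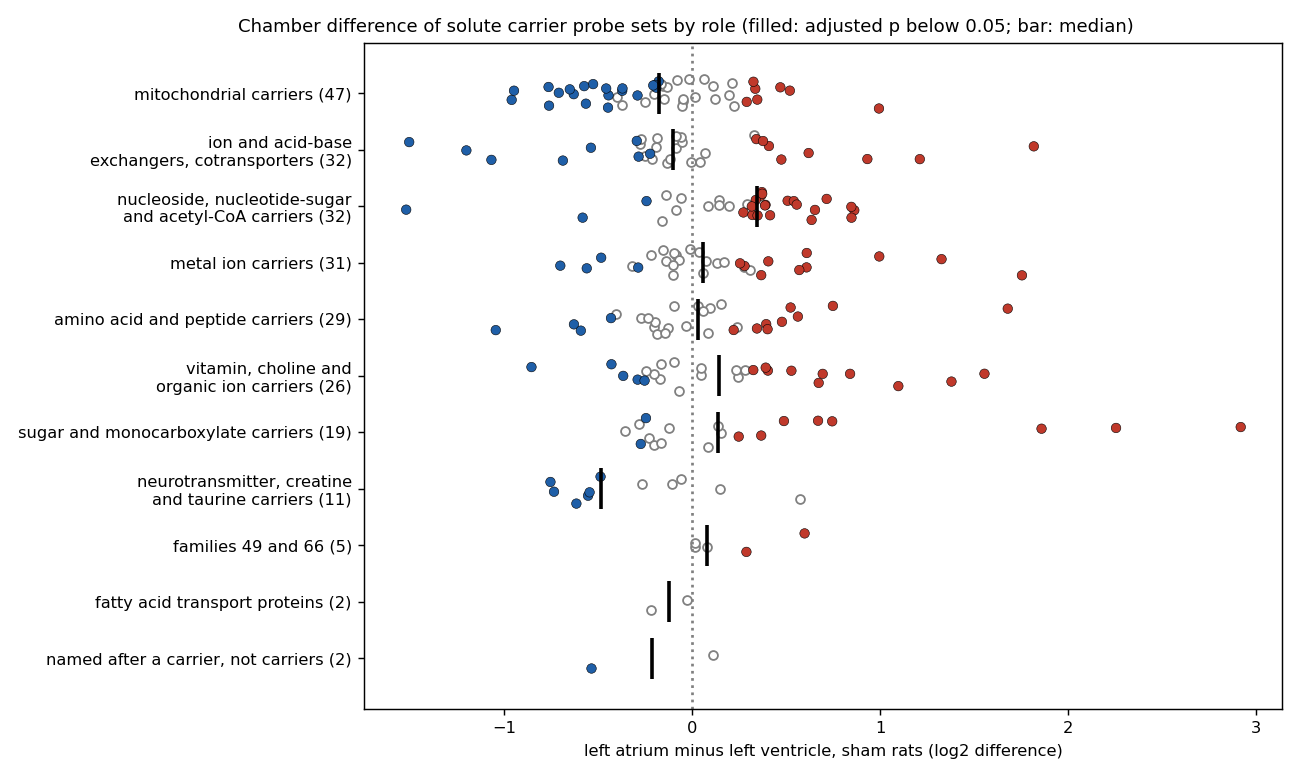
Log2 difference of left atrium minus left ventricle in sham rats for each of the 236 member probe sets, by role, with called members filled (red higher, blue lower in left atrium), others open, and the median of each role as a bar. Medians lie at -0.18 for mitochondrial carriers, 0.34 for nucleoside, nucleotide-sugar and acetyl-CoA carriers and -0.49 for the neurotransmitter, creatine and taurine carriers. The number of probe sets of each role stands in parentheses.

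Sodium- and chloride-coupled carriers of family 6 had 6 of 11 probe sets called lower in left atrium (54.5%), beside 22.0% of all tested. Called higher were 0, beside 25.2%, and the median was -0.49. The 6 lower ones came from 3 genes. The creatine transporter Slc6a8 read on its dimmer probe set 7.34, 7.17 and 7.35 in atrial and 8.10, 8.01 and 8.01 in ventricular sham arrays, and differed by -0.75 there and by -0.62 on the brighter one. Slc6a17 differed by -0.74, -0.55 and -0.49. Slc6a2, the noradrenaline transporter, differed by -0.55 ± 0.15 (adjusted p 0.0115), with an atrial mean below the level filter. Slc6a6 was not called in sham rats (0.15 ± 0.09, adjusted p 0.206). The 2 carriers of creatine lay on opposite sides, with Slc16a12 higher and Slc6a8 lower in left atrium. Creatine kinases were lower, with Ckmt2 at -0.61 and Ckm at -0.31. The taurine synthesis enzymes Cdo1 and Csad were higher, at 1.85 and 0.82.

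Slc16a12 was also the member furthest apart between chambers. Its brighter probe set differed by 2.92 ± 0.19 (adjusted p 2.77e-07) and its dimmer one by 1.86 ± 0.16, with ventricular sham means of 3.49 and 3.01 that lie below the level filter. Among the sugar and monocarboxylate carriers, 8 of 19 probe sets were called higher (42.1%), beside 25.2% of all tested, and 2 lower (10.5%), beside 22.0%. Slc2a13, which takes up myo-inositol with protons, read 7.92, 7.93 and 7.98 in atrial and 5.84, 5.74 and 5.50 in ventricular sham arrays. The difference was 2.25 ± 0.14 (adjusted p 2.02e-07) on this probe set and 0.74 on the other, so the size rests on the probe set while the direction does not.

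Ion and acid-base carriers had 8 of 32 probe sets called higher, beside 25.2% of all tested, and 8 lower, beside 22.0%. Their median was -0.10. Slc24a4, a potassium-dependent sodium and calcium exchanger, read 6.61, 6.39 and 6.44 in atrial and 4.77, 4.64 and 4.59 in ventricular sham arrays on its brightest probe set (1.82 ± 0.12, adjusted p 2e-07). Its other probe sets differed by 0.93 and 0.47, also called, with ventricular sham means of 3.86 and 3.96 that lie below the level filter. Slc9a9, an endosomal sodium and proton exchanger, differed by 1.21 on 1 probe set (adjusted p 0.000217) and by -0.12 on the other (adjusted p 0.441). Lower in left atrium was Slc12a7, a potassium and chloride cotransporter, which read 8.84, 8.56 and 8.69 in atrial and 9.93, 9.91 and 9.85 in ventricular sham arrays (-1.20 ± 0.07, adjusted p 1.37e-07), with -0.69 on its other probe set. Slc26a10 of the anion exchanger family differed by -1.51 ± 0.20 (adjusted p 7.3e-05), with an atrial mean of 3.68 below the level filter. Slc4a1, the band 3 anion exchanger of red cells, differed by -1.07 ± 0.32 (adjusted p 0.0166) on 1 probe set and by -0.27 on the other, not called. The called probe set had an atrial sham mean of 3.80, below the level filter. Of 3 tested erythroid markers 0 were called, and their list averaged 6.79 to 6.84 in atrial and 7.02 to 7.20 in ventricular sham arrays. The sodium, potassium and chloride cotransporter Slc12a2 (0.04, adjusted p 0.622) and Slc4a3 (-0.19, adjusted p 0.167) were not called.

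Among the metal ion carriers 10 of 31 probe sets were called higher (32.3%), beside 25.2% of all tested, and 4 lower (12.9%), beside 22.0%. The zinc importers Slc39a8 and Slc39a2 led. Slc39a8 read 6.83, 6.79 and 6.85 in atrial and 5.13, 5.32 and 4.76 in ventricular sham arrays, 1.75 ± 0.18 (adjusted p 1.1e-05). Slc39a2 read 7.20, 6.82 and 6.93 in atrial and 5.71, 5.74 and 5.51 in ventricular sham arrays, 1.33 ± 0.13 (adjusted p 8.25e-06). Slc39a14 differed by -0.56 on its dimmer probe set (adjusted p 0.000381) and by -0.14, not called, on its brighter one.

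Amino acid and peptide carriers had 9 of 29 probe sets called higher (31.0%), beside 25.2% of all tested, and 4 lower (13.8%), beside 22.0%. Slc7a7 was the highest, with 5.84, 5.65 and 6.14 in atrial and 4.14, 4.28 and 4.17 in ventricular sham arrays (1.68 ± 0.12, adjusted p 5.87e-07). Slc3a2, the heavy chain that pairs with Slc7a7 and other light chains, differed by 0.56 ± 0.08 (adjusted p 0.000145), and its light chain Slc7a5 by -0.14, not called. Slc38a3 was the lowest, at -1.04 ± 0.08 (adjusted p 1.42e-06). Vitamin, choline and organic ion carriers had 10 of 26 probe sets called higher (38.5%), beside 25.2% of all tested, and 5 lower (19.2%), beside 22.0%. Slc22a23, an orphan of family 22, read 6.38, 7.27 and 7.20 in atrial and 5.26, 5.56 and 5.36 in ventricular sham arrays (1.55 ± 0.22). Slc17a7 differed by 1.38 ± 0.14 and 0.28 on its probe sets, the smaller not called. Slc22a17, a receptor for lipocalin 2, differed by 1.10 ± 0.08 (adjusted p 8.91e-07), and the thiamine transporter Slc19a2 by -0.85 ± 0.11 (adjusted p 5.63e-05). The carnitine transporter Slc22a5 differed by -0.07 and was not called. Of families 49 and 66, Slc66a3 differed by 0.60 (adjusted p 0.00459). Neither fatty acid transport protein was called, and Slc4a1ap, not a carrier, differed by -0.54.

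**Figure D4:**
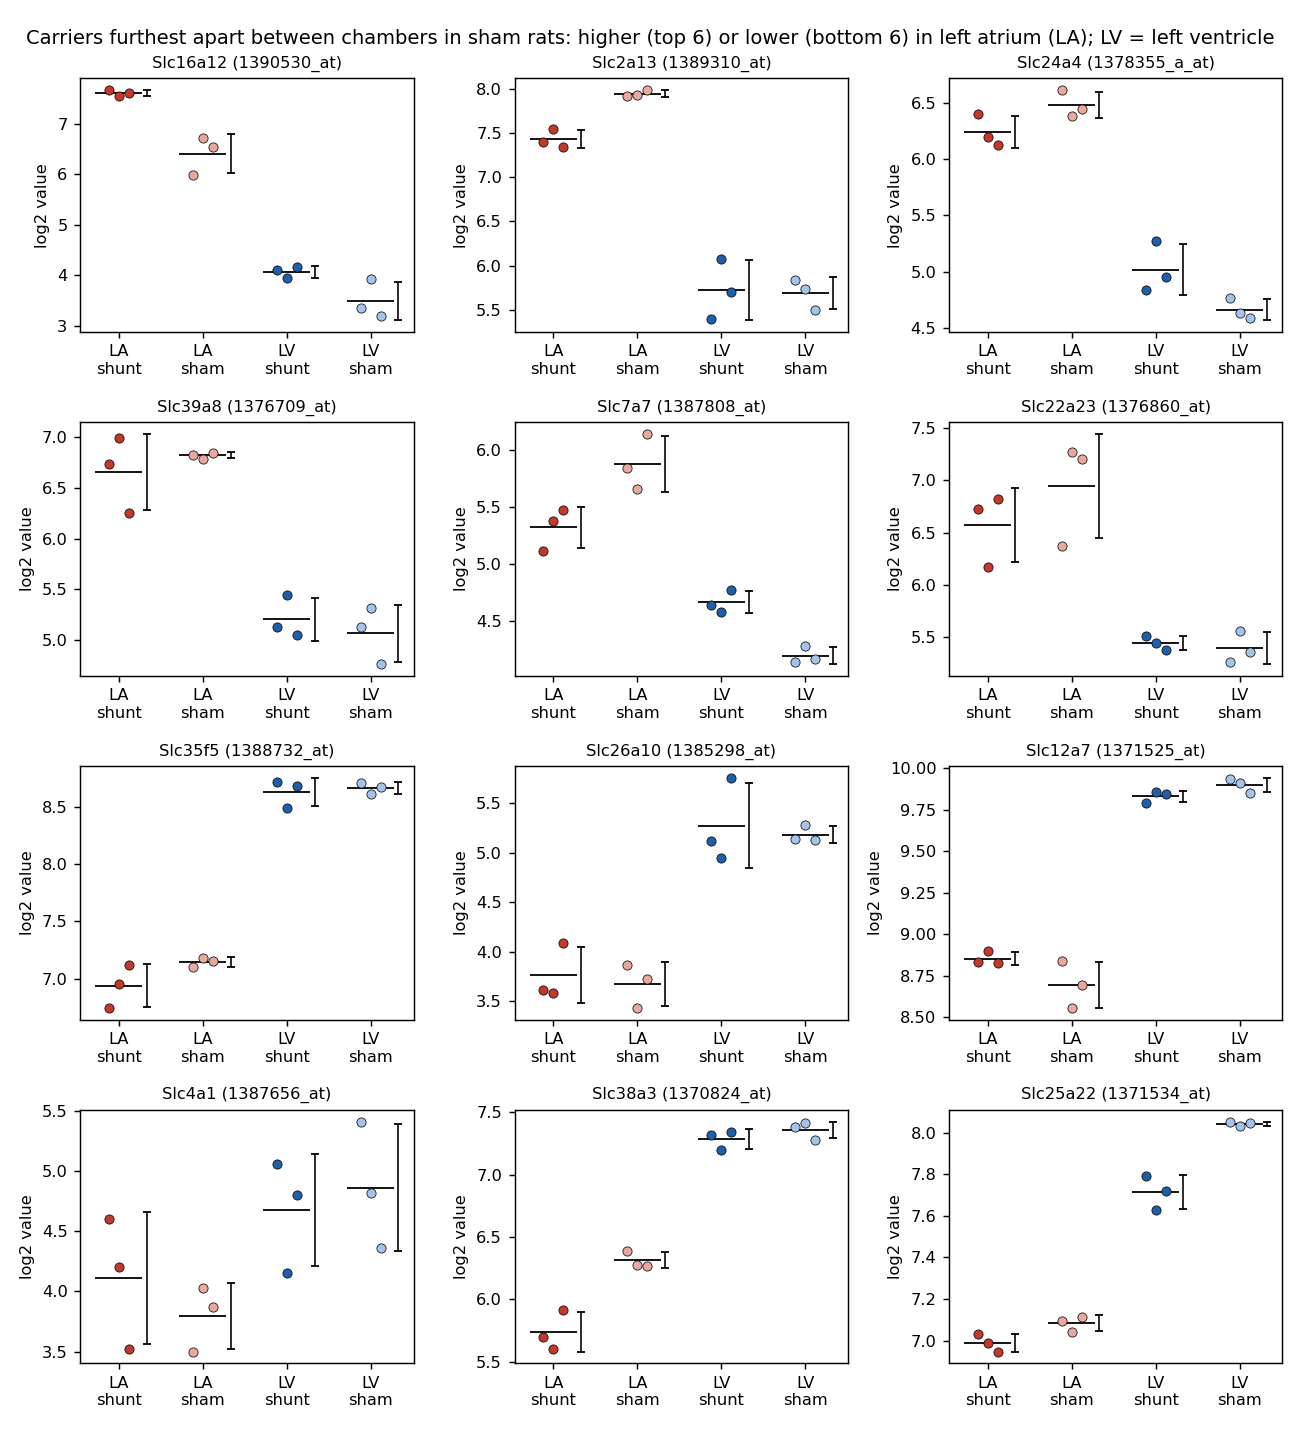
Log2 values in 12 arrays of the 6 genes furthest higher (upper panels) and the 6 furthest lower (lower panels) in left atrium of sham rats among called members without overlap, with group means (lines) and SDs of 3 arrays (bars). Atrial values lie on the same side of ventricular ones in shunt rats too, except that Slc4a1 groups overlap there.

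In shunt rats the chamber contrast called 118 of 236 members, for 95 genes, beside 41.9% of all probe sets tested. They were 63 higher (26.7%), beside 22.4%, and 55 lower (23.3%), beside 19.4%. The arrays did not overlap for 125 members (53.0%), beside 49.3%. This contrast uses other arrays than that in sham rats. Of the members higher in left atrium, 60 were shared, 81.1% of the 74 in sham rats and 95.2% of the 63 in shunt rats. Of those lower, 42 were shared, 79.2% of 53 and 76.4% of 55, and 0 members were called in opposite directions. The genes whose chamber difference was furthest from equal in shunt and sham rats were Slc17a7, Slc7a7 and Slc16a12. Slc7a7 differed by 0.65 in shunt and by 1.68 in sham rats, and Slc17a7 by 0.28 (adjusted p 0.113) in shunt and by 1.38 in sham rats. Slc16a12 differed by 3.54 in shunt and by 2.92 in sham rats on the brighter probe set, and by 2.83 in shunt and 1.86 in sham rats on the dimmer one.

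For the members that were lower in left atrium, Slc38a3 differed by -1.55 in shunt and -1.04 in sham rats, and Slc25a34 by -1.22 in shunt and -0.76 in sham rats. Slc39a2 read 7.57, 7.55 and 7.34 in atrial and 5.65, 5.15 and 5.41 in ventricular shunt arrays, 2.08 in shunt rats against 1.33 in sham rats. Slc6a6 passed the threshold in shunt rats (0.51, adjusted p 0.000944) and not in sham rats. Slc4a3 was called at -0.51 (adjusted p 0.00262) in shunt rats. In sham rats it differed by -0.19 (adjusted p 0.167), and adjusted p was 0.00926 to 0.304 under other settings. It was called under 5 of them, which include the fit without atrial shunt array 3 (adjusted p 0.0178). No change of a chamber difference with the shunt passed its own test, which is that of the difference between the shunt effects. The 3 shunt arrays of highest hexokinase difference were atrial shunt array 3 and ventricular shunt arrays 1 and 3. A fit without them keeps ventricular shunt array 2 alone in its group, so no conclusion is drawn from its counts.

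**Figure D5:**
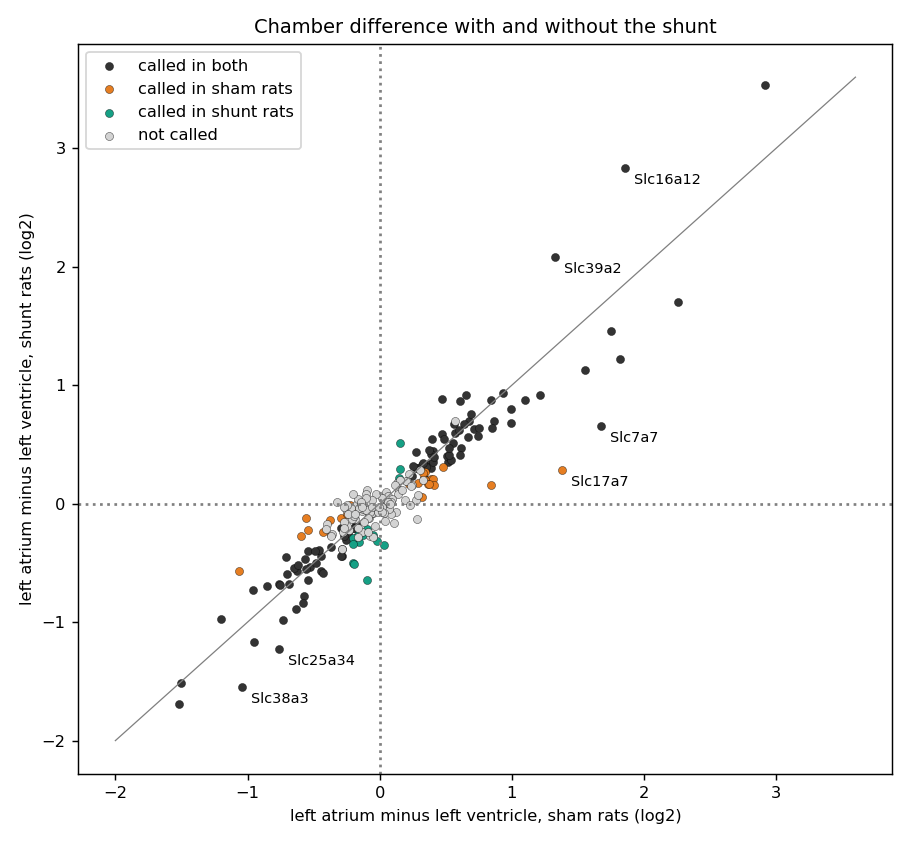
Log2 difference of left atrium minus left ventricle for the 236 member probe sets in sham rats (horizontal) and shunt rats (vertical), coloured by where it was called, with the line of equal values. Most points lie near the line, and the named 6 had the smallest p for the difference between the shunt effects.

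Several probe sets measured 41 of the member genes, which gives a check within the array. For the chamber contrast in sham rats, all probe sets of a gene had the same sign in 35 of the 41, and 0 genes had calls in opposite directions. All probe sets were called in 1 direction for 15 genes, some were called for 16 and none for 10. The spread between probe sets of a gene exceeded 1 for 5 genes. For the shunt in left atrium the repeat probe sets of Slc16a12 were called together, those of Slc17a7 had the same sign with 1 called, and those of Slc6a6 likewise.

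The mean over all arrays chose the members, so a member may lie below the filter in a group where it is low. This held for 22 of the 236 in at least 1 group, among them both probe sets of Slc16a12 and of Slc17a7. Among the other 214, 5 were called for the shunt in left atrium (2.34%), 17 for the average (7.94%), 116 between chambers in sham rats (54.2%) and 109 in shunt rats (50.9%).

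Carriers of the superfamily under other symbols, a list of 49 genes of which 33 were tested, had 0 genes called higher and 1 lower for the shunt in left atrium, beside 0.585% and 0.811% of the 10606 genes tested. The call was Ankh, a citrate exporter (-0.36, adjusted p 0.0310). For the average over both chambers 0 were higher and 3 lower, beside 2.38% and 2.69%. They were Ankh (-0.28), the uncoupling protein Ucp2 (-0.34) and Sfxn5 (-0.26), a sideroflexin of mitochondria. Between chambers in sham rats 11 were higher and 6 lower of the 33, beside 27.6% and 22.6% of all genes tested. The largest difference was that of Tmem163, a zinc exporter, at 3.64 (means of 7.72 in left atrium and 4.08 in left ventricle). Of the 29 tested partners and regulators, 0 rose and 5 fell for the average. They were Gamt (-0.41), Csad (-0.38), the carnitine acyltransferases Crat (-0.29) and Cpt2 (-0.20) and the creatine kinase Ckm (-0.18). In left ventricle neither list had a call. The 10 carriers left out by name had 1 call in each chamber for the shunt, Slc24a3, a potassium-dependent sodium and calcium exchanger, at -0.77 in both. Genes of these lists without a shunt call were picked after their values were seen.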

How the data were processed

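RNA of 12 tissue pools was measured on one-colour Affymetrix rat arrays, from 10 µg of total RNA made into biotin-labelled cRNA, per the labels' protocols. The deposited log2 values are RMA values, per the submitters' processing notes. RMA is a method that corrects background, makes the arrays' distributions alike and summarises the probes of a set, so shifts common to all genes are removed. The version of RMA and which arrays were normalized together are not given in the sources used here. No column was left unused. No 2 arrays held identical values.

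Gene symbols came from the platform annotation, and all 236 member probe sets were matched to the RefSeq rat table by Entrez identifier, with 0 renamed. After leaving out 57 control probe sets, those with a mean at or above the 40th percentile were fitted with limma 3.58.1 (lmFit and eBayes, R 4.3.3), 1 mean per group over all arrays, 8 residual and 3.68 prior degrees of freedom. P-values are two-sided and Benjamini-Hochberg adjusted over all 18625 probe sets tested. The fit was also tested on simulated data. By the labels the pools are biological replicates, so p-values rest on the spread among pools. The labels do not say whether pools of 1 number share rats.

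Named members are those called for the shunt, filled to 5 by smallest p, the 10 furthest higher and 10 furthest lower called members between chambers in sham rats without overlap, the member of smallest p of each role, and a set list for heart physiology. The text names part of these. The members and all lists were chosen with earlier results of these data known. Marker, role, partner and other-symbol lists are textbook lists. A gene of those lists is represented by its probe set of highest mean. Other settings tried were array weights, a trended and robust prior, 1 probe set per gene, quantile normalization once more, a percentile of 60 or no level filter, a fit of the compared groups alone, the hexokinase difference as a covariate, the replicate number as a block and each array left out. A fit without the 3 shunt arrays of highest hexokinase difference was chosen after seeing the data. It leaves ventricular shunt array 2 alone in its group, so no conclusion is drawn from its counts.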

Additional observations from a re-analysis of the deposited data

How the results depend on the processing

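The limits are 3 arrays per group, pools in place of single rats, dim probe sets near the filter and a spread estimated over all groups. For the shunt in left atrium, 8 members were called, against 13 with a trended and robust prior and 19 with array weights. With the hexokinase difference as a covariate 18 were called, and with only the atrial arrays in the fit 2 (Slc16a12 and Slc17a7). Leaving out 1 array gave 4 to 10, with 4 without atrial shunt array 1 and 5 without atrial shunt array 2 or atrial sham array 1. In left ventricle, 0 members were called, against 3 with a filter at the 60th percentile, 1 with a trended and robust prior, 3 with array weights and 4 with the covariate, and 0 to 3 without 1 array (3 without atrial shunt array 3). Slc25a22 was among them under each of the fits named. The average over both chambers called 20 members, against 33 with array weights and 31 with the covariate, and 7 to 22 without 1 array. The difference of the effects called 0 to 1. Between chambers, 127 were called in sham rats (108 to 137 without 1 array) and 118 in shunt rats (98 to 115 without 1 array, and 78 without the 3 arrays). The causes of these shifts were not tested, beyond the fewer arrays in fits that leave arrays out. The fit without the 3 arrays keeps ventricular shunt array 2 alone in its group, so its count is not comparable with the others. No filter, quantile normalization and 1 probe set per gene kept each count within 1.5 times. With 1 array left out, 141 values of single named members for the average kept their side of the threshold and 99 lost their call. In left atrium 215 kept their side, 24 lost a call and 1 gained it, and between chambers in sham rats 453, 2 and 1. Many members named for the chamber contrast were picked for a large called difference or a small p. Their counts thus do not stand for all calls. Of all 127 calls between chambers in sham rats, 96 held in every fit without 1 array, and 90 of the 118 in shunt rats. For these named members, a value is that of 1 member in 1 such fit. Keeping a side includes staying uncalled. In left ventricle 225 stayed uncalled and 3 gained a call, and for the difference of the effects 60 stayed uncalled. Called values that reversed were 0.

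Same-numbered pools of different groups had deviations that correlated at -0.24 to 0.44 over 18 pairs, of which 4 were over 0.1. All 4, at 0.23 to 0.44, were among the 6 pairs of atrium with ventricle of the same treatment, and the highest value outside these 6 was 0.06. These 6 also held the lowest value, so not every pair was over 0.1 and the numbers were not taken to pair the samples. A fit paired within each treatment was not among the settings tried. The replicate number as a block joins pools of 1 number over all 4 groups, so it does not test such pairing. With the replicate number as a block, 8 members were called in left atrium (6 of them shared, without Slc25a34 and Slc29a1), 0 in left ventricle, 20 for the average (18 shared), 0 for the difference of the effects, 127 between chambers in sham rats (124 shared) and 119 in shunt rats (115 shared).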
